A study of Drosophila melanogaster with 12 samples.

Results

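The comparison described here asks which mRNAs differed after lipopolysaccharide (LPS) in *Drosophila* SL2 cells whose double-stranded RNA (dsRNA) was directed against GFP, a jellyfish protein that fly cells do not encode. It was chosen by array title and holds 6 of the 12 arrays of the series, with 3 biological repeats of GFP dsRNA + LPS against 3 of GFP dsRNA without LPS. All 6 cultures received 12.5 µg/ml GFP dsRNA for 4 days, and the LPS cultures were also exposed to 10 µg/ml LPS (Sigma, serotype O55:B5) during the last 4 h. Total RNA was hybridized to Affymetrix Drosophila Genome 2.0 arrays. The remaining 6 arrays of the study, which concerned the mRNA decay factor Tis11, repeat both treatments with dsRNA against Tis11. They share no array with the GFP pair and are used below only as a second measurement of LPS. Of 18952 probe sets, the 18769 that are not array controls were measured and tested. A single cell line was used, so the p-values measure the spread between repeats of that line. In bulk RNA, fewer cells of a type and less RNA per cell cannot be told apart.

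Flies have no antibody-based immunity and respond to bacteria through pathways that end in NF-κB transcription factors. In the Imd pathway, peptidoglycan recognition proteins (PGRPs) sense peptidoglycan of the Gram-negative type and signal through the adaptor Imd, the caspase Dredd and an IκB kinase complex. The NF-κB protein Relish then enters the nucleus and switches on genes of antimicrobial peptides. Commercial LPS is known to carry peptidoglycan, the ligand that fly cells recognise. The same pathway branches to the JNK kinase, and several of its targets are inhibitors that feed back on it.

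Each value below is a log2 signal made by RMA, which corrects background, gives the arrays the same distribution and summarises a probe set's probes. Values ran from 2.26 to 14.0, and 11580 probe sets had a mean under 6 over the 6 arrays, near the bottom of this range. The correlation of any 2 of the 6 arrays lay between 0.971 and 0.995. Variation within the groups was not spread evenly, since 1 axis held 69.9% of it among the 7189 probe sets whose mean was 6 or more. Replicate 3 of both groups stood apart in heat shock mRNAs, whose mean signal over 8 genes ran from 9.43 to 10.47 in the GFP dsRNA + LPS arrays and from 8.98 to 10.99 in the GFP dsRNA arrays. The chaperone gene Hsp26 had 8.40, 8.35 and 11.08 in the GFP dsRNA + LPS arrays (replicates 1 to 3), against 7.17, 8.03 and 11.98 in the GFP dsRNA arrays. The part of this shared variation in the results was not tested, and the counts without each array are given below. All 11 plasmatocyte (macrophage-like blood cell) markers measured had a GFP dsRNA mean of at least 6. So had 4 of 6 markers of lamellocytes and 2 of 5 of crystal cells, the other blood cell types listed. By contrast, 0 of 7 fat body markers and 0 of 6 neuron markers did.

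LPS raised 10 probe sets, which is 0.0533% of those tested, at an adjusted p under 0.05 by limma, and lowered 0. Their log2 differences lay between 1.47 and 6.63, and 6 of them belong to 1 annotated gene each: the antimicrobial peptide genes AttD, Mtk and DptB, the infection-induced gene edin, the predicted membrane transporter gene CG8046 and the semaphorin gene Sema5c. Another is shared by IM18, which encodes an immune-induced molecule, and CG10332. The other 3 passed with no gene in the annotation used here. In all 10 the groups did not overlap, and 8 had a GFP dsRNA mean under 6. At an unadjusted limma p under 0.05, 167 probe sets were higher (0.89%) and 146 lower (0.778%), and after each array was centred on its median these counts were 226 higher and 70 lower. By the methods' t-test 0 probe sets were higher and 1 lower after adjustment.

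**Figure D1:**
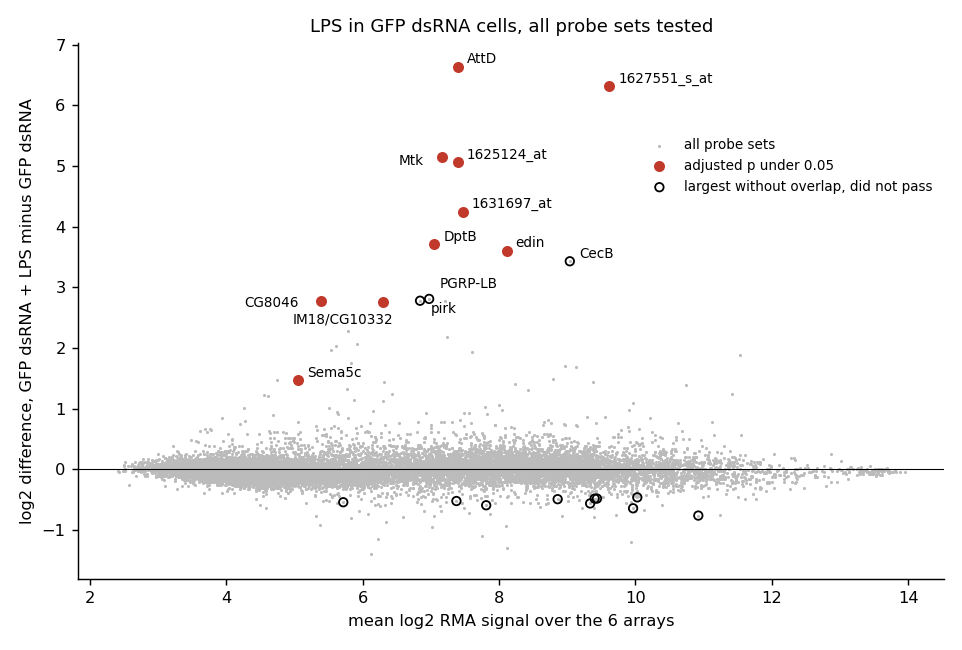
Log2 difference (GFP dsRNA + LPS minus GFP dsRNA, vertical axis) against the mean log2 RMA signal over the 6 arrays (horizontal axis) for all 18769 probe sets. Red points passed at an adjusted p under 0.05, open circles are the largest rises and falls among non-overlapping groups that did not pass, and the 10 red points lie between 1.47 and 6.63.

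Attacin D (AttD), a glycine-rich peptide that acts on Gram-negative bacteria, had the largest measured difference. It had 10.60, 9.91 and 11.65 in the GFP dsRNA + LPS arrays, against 4.54, 3.81 and 3.90 in the GFP dsRNA arrays. The lowest LPS array thus lay more than 5 log2 units above the highest array without LPS. The difference was 6.63 (standard error, SE, 0.44, adjusted p = 0.008, limma). The signal without LPS lay near the bottom of the scale, and whether it exceeded background was not tested, so no fold is given.

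Metchnikowin (Mtk), a proline-rich peptide active against fungi and bacteria, had 9.59, 10.13 and 9.49 with LPS, against 4.81, 4.79 and 4.20 without. Its difference of 5.14 (SE 0.24) had a smaller error than that of AttD (adjusted p = 0.0044). Diptericin B (DptB), another peptide against Gram-negative bacteria, had 9.07, 9.32 and 8.32 with LPS, against 5.52, 5.04 and 5.01 without, a difference of 3.71 (SE 0.28, adjusted p = 0.014). The gene edin, named for its elevation during infection, encodes a short secreted peptide. It had 10.49, 9.57 and 9.66 with LPS, against 6.45, 6.40 and 6.08 without, and its difference was 3.60 (SE 0.26, adjusted p = 0.011). In each of these genes all LPS arrays lay more than 2 log2 units above all arrays without LPS.

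Of 16 genes in the antimicrobial peptide list, which includes edin, 8 had a probe set of their own. Of these 8, 4 passed (AttD, Mtk, DptB and edin), where 0.0533% of all probe sets did. The median difference of the 8 was 3.51 (3.20 to 3.77 without 1 array), beside -0.02 for all probe sets. This list and the others below were chosen with earlier results of these data known. Their counts and medians beside those of all probe sets are therefore descriptive and no separate support. Cecropin B (CecB), a membrane-disrupting peptide, had 10.77, 10.31 and 11.18 in the GFP dsRNA + LPS arrays, against 8.47, 7.18 and 6.31 in the GFP dsRNA arrays. The groups did not overlap, but the arrays without LPS spread widely (SD 1.09), and the difference of 3.43 (SE 0.54) did not pass (adjusted p = 0.44). Drosomycin (Drs), an antifungal peptide best known as a target of the Toll pathway, had 5.83, 6.49 and 6.29 with LPS, against 5.43, 5.20 and 5.43 without. Its groups did not overlap either, at a difference of 0.85 (SE 0.18, adjusted p = 1.0). Defensin (Def) and Listericin, peptides active against Gram-positive bacteria among others, differed by -0.11 (SE 0.11) and -0.03 (SE 0.16), and their groups overlapped.

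Probe set 1627551_s_at, which has no gene in the annotation used here, was near the top of the scale with LPS. It had 13.16, 12.28 and 12.88 with LPS, against 7.04, 6.28 and 6.07 without, a difference of 6.31 (SE 0.32, adjusted p = 0.0044). The other probe sets without a gene were 1625124_at, with a difference of 5.06 (SE 0.27, adjusted p = 0.0044), and 1631697_at, with 4.25 (SE 0.26, adjusted p = 0.0063). The probe set of IM18 and CG10332 had 7.68, 7.90 and 7.43 with LPS, against 5.21, 4.76 and 4.76 without (2.76, SE 0.18, adjusted p = 0.0073). Which of both genes gave this signal cannot be told apart.

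CG8046, a predicted transporter of the major facilitator family, had 6.47, 6.92 and 6.94 with LPS, against 4.19, 3.89 and 3.95 without (2.77, SE 0.16, adjusted p = 0.0061). Sema5c, which encodes a transmembrane semaphorin, had 5.56, 5.81 and 6.0 with LPS, against 4.23, 4.29 and 4.45 without. Its difference of 1.47 (SE 0.14) was the smallest of those that passed (adjusted p = 0.045). In every one of the 6 fits that left out an array, Sema5c no longer passed.

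**Figure D2:**
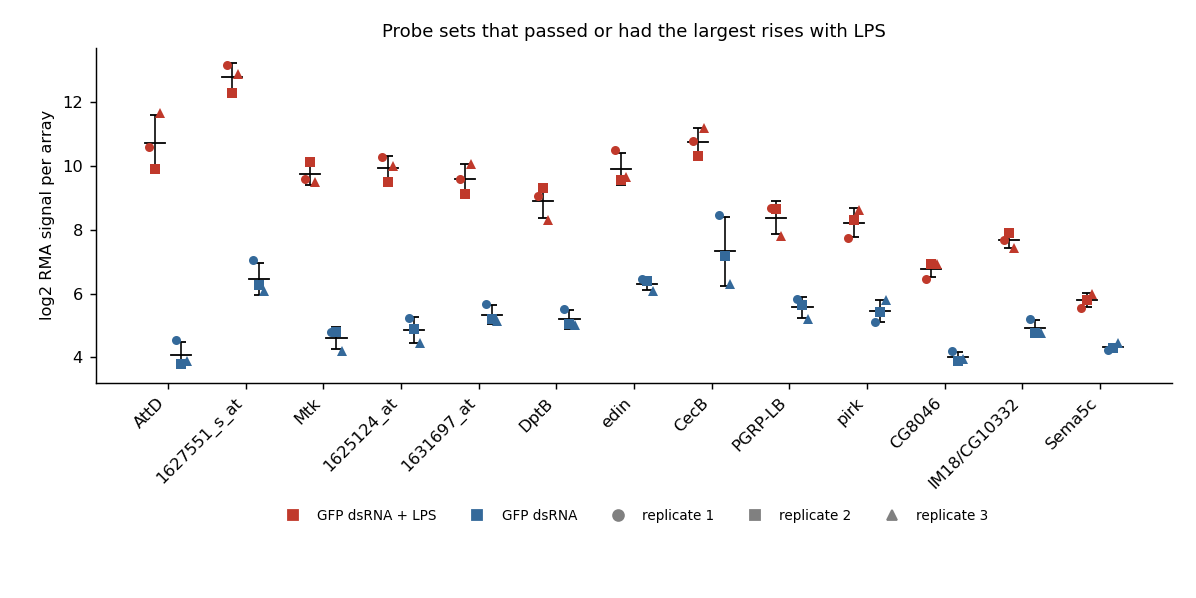
Log2 RMA signal of each array (vertical axis) for the 10 probe sets that passed and for CecB, PGRP-LB and pirk, which did not, with GFP dsRNA + LPS in red on the left of each pair and GFP dsRNA in blue on the right. Bars show mean and SD of 3 arrays, marker shapes give the replicate number, and in no pair do the colours overlap.

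The number of calls depended on single arrays. Without GFP dsRNA replicate 2, 0 probe sets passed (lowest adjusted p = 0.083), while the differences of the 10 lay between 1.45 and 6.50. Without GFP dsRNA replicates 3 or 1, 3 and 6 passed, and without GFP dsRNA + LPS replicate 1, 5 passed. Without replicates 2 or 3 of the LPS arrays, 14 and 10 passed, of which 9 were among the 10 in each case. GFP dsRNA replicate 1 was the highest of the arrays without LPS in 9 of the 10 probe sets.

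PGRPs and the Imd inhibitor pirk had the second highest median of the lists, after antimicrobial peptides. Of 14 genes listed, 8 were measured, and these had a median difference of 0.70 (0.54 to 0.93 without 1 array). None passed, while 5 had an unadjusted limma p under 0.05 and non-overlapping groups, where 2.15% of all probe sets were higher without overlap. Pirk, which binds the receptor PGRP-LC and the adaptor Imd and dampens signalling, had 7.74, 8.31 and 8.63 with LPS, against 5.12, 5.43 and 5.81 without (2.78, SE 0.27, adjusted p = 0.052). PGRP-LB, an amidase that cleaves peptidoglycan and so limits the response, had 8.69, 8.66 and 7.79 with LPS, against 5.84, 5.65 and 5.21 without (2.81, SE 0.29, adjusted p = 0.057). Both lay just beyond the threshold, and every LPS array was above every array without LPS. Both passed with the replicate block, with an intensity trend, with means of at least 6 and with all 12 arrays in 1 fit. Neither passed after median centring or by the methods' t-test after adjustment. Of the 6 fits that left out an array, pirk passed in 0 and PGRP-LB in 1.

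The membrane protein PGRP-LF, another inhibitor of Imd signalling, had 10.04, 9.34 and 10.10 with LPS, against 8.30, 8.19 and 7.87 without (1.71, SE 0.23, adjusted p = 0.23). The amidase gene PGRP-SC2 had 7.77, 6.58 and 7.84 with LPS, against 6.38, 6.56 and 6.46 without. Its replicate 2 with LPS lay barely above the nearest array without LPS, and the difference was 0.93 (SE 0.33, adjusted p = 1.0). PGRP-SB1, which also encodes an amidase, had a difference of 0.47 (SE 0.15, adjusted p = 1.0) with non-overlapping groups. PGRP-LA and the intracellular receptor PGRP-LE differed by 0.24 (SE 0.15) and 0.10 (SE 0.15), and PGRP-SB2 by -0.05 (SE 0.09), each with overlapping groups.

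Among the signalling components of the Imd pathway, the mRNA of the transcription factor itself differed most. Relish (Rel) had 11.65, 10.85 and 11.80 in the GFP dsRNA + LPS arrays, against 10.20, 10.03 and 9.89 in the GFP dsRNA arrays. The groups did not overlap, and the difference of 1.39 (SE 0.26) did not pass (adjusted p = 0.89). Rel, PGRP-LF and PGRP-SC2 each passed in 1 of the 6 fits that left out an array, the one without GFP dsRNA + LPS replicate 2, in which they were lowest among the LPS arrays.

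Charon, an ankyrin-repeat protein that acts on Relish, had 9.33, 8.81 and 9.37 with LPS, against 8.95, 8.49 and 8.58 without (0.50, SE 0.20), and the groups overlapped. Kenny (key), the regulatory subunit of the IκB kinase complex, differed by 0.48 (SE 0.23), the adaptors imd and Fadd by 0.30 (SE 0.17) and 0.28 (SE 0.19), and the ubiquitin ligase POSH by 0.35 (SE 0.30), all with overlapping groups. The ubiquitin-conjugating factor Uev1A was lower without overlap, at 11.07, 11.06 and 11.07 with LPS, against 11.34, 11.16 and 11.24 without (-0.18, SE 0.09). The kinase adaptor Tab2 differed by -0.28 (SE 0.26). The other 9 members lay between -0.22 and 0.10, among them the caspase Dredd, the kinase IKKbeta, the inhibitor of apoptosis Diap2 and the inhibitors casp, dnr1 and CYLD. Over the 17 members measured of 19 listed, the median was 0.08 and 0 passed.

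**Figure D3:**
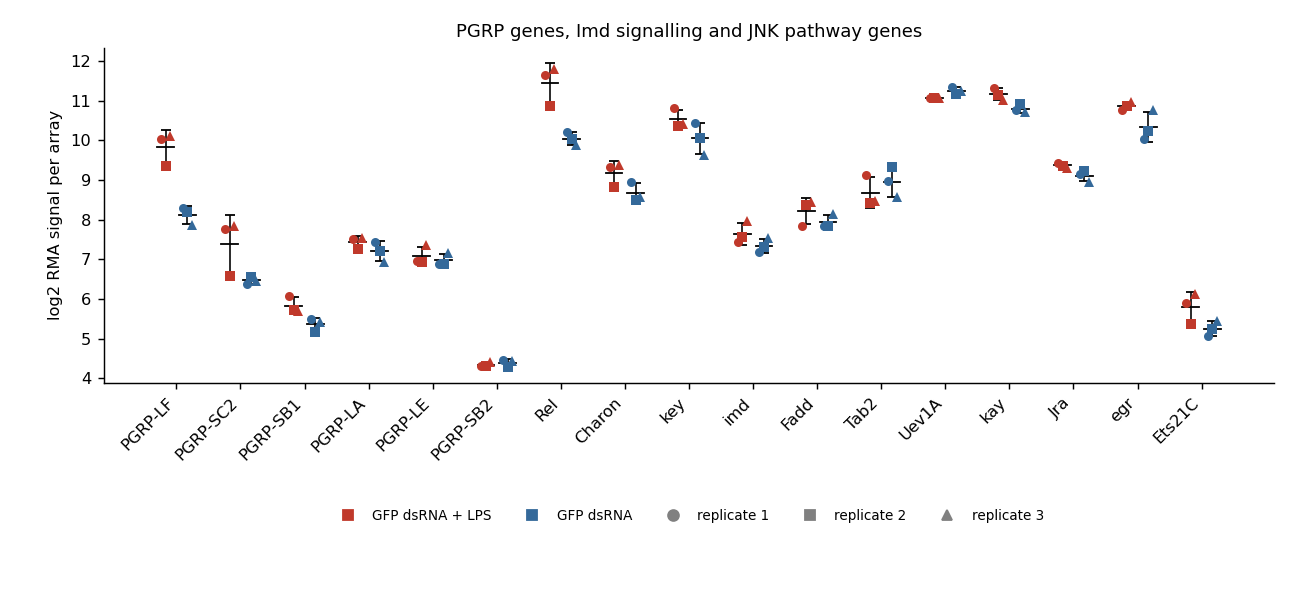
Log2 RMA signal of each array (vertical axis) for the remaining PGRP genes, 7 Imd signalling genes and 4 JNK pathway genes, with GFP dsRNA + LPS in red on the left of each pair and GFP dsRNA in blue on the right. Bars show mean and SD of 3 arrays, and the widest gaps are those of Rel (1.39) and PGRP-LF (1.71).

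The JNK pathway list, which holds the kinase cascade and the AP-1 transcription factors it acts on, had 17 of 18 genes measured. Its median was 0.16, in a range from -0.16 to 0.54, and 14 members were above 0, where 43.3% of all probe sets were. Of the 17, 15 had a GFP dsRNA mean of at least 6, as had 7185 of all 18769 probe sets, so this share comes mostly from dimmer signals. None passed, and 4 had an unadjusted limma p under 0.05, all higher, as had 0.89% of all probe sets. Without GFP dsRNA replicate 1 the median was 0.06, and without GFP dsRNA + LPS replicate 2 it was 0.25. The AP-1 gene kay, the fly Fos, had 11.31, 11.15 and 11.02 with LPS, against 10.75, 10.90 and 10.70 without (0.38, SE 0.11). Its partner Jra, the fly Jun, had 9.43, 9.36 and 9.30 with LPS, against 9.16, 9.22 and 8.95 without (0.25, SE 0.11). Neither gene's groups overlapped, at differences well under 1. In Tis11 dsRNA cells kay differed by 0.28 (SE 0.16) and Jra by 0.08 (SE 0.11), both with overlapping groups.

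Eiger (egr), the fly tumour necrosis factor that activates JNK, had 10.76, 10.87 and 10.96 with LPS, against 10.02, 10.22 and 10.76 without. The nearest arrays of both groups were alike at 10.76, and the difference was 0.53 (SE 0.20). In Tis11 dsRNA cells the corresponding difference of egr was 0.05 (SE 0.21). The limma test of the difference between both responses did not pass for egr (unadjusted p = 0.16). The transcription factor gene Ets21C, a JNK target, differed by 0.54 (SE 0.21) with overlapping groups. The list's median in Tis11 dsRNA cells was 0.05.

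In the list of redox and glutathione genes, with 17 of 20 measured, the median was -0.01 and 0 passed. Keap1, the adaptor that marks the antioxidant transcription factor CncC for degradation, had 8.46, 7.75 and 8.71 with LPS, against 6.86, 7.26 and 7.72 without (1.03, SE 0.31). Gclc, the catalytic subunit of the enzyme that starts glutathione synthesis, had 8.98, 8.97 and 9.18 with LPS, against 8.58, 8.54 and 8.76 without (0.41, SE 0.11). Its modifier subunit Gclm differed by 0.39 (SE 0.16). The groups of these 3 genes did not overlap, and the adjusted p of each was 1.0.

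Of the other lists, none held a member with a probe set of its own that passed. Their medians lay between -0.11 (matrix and metalloproteinases) and 0.32 (crystal cell markers). Of their members spz, sn, smg and para had an unadjusted limma p under 0.05, which 1.67% of all probe sets had. Leaving out 1 array moved some of these medians far, with crystal cell markers between 0.03 (without GFP dsRNA replicate 1) and 0.65 (without GFP dsRNA + LPS replicate 3) and heat shock genes between -0.21 (without GFP dsRNA replicate 1) and 0.64 (without GFP dsRNA replicate 3). DNA replication ranged from -0.29 to 0.37 and mitosis from -0.27 to 0.27, the lowest without GFP dsRNA + LPS replicate 2 and the highest without its replicate 3. Toll signalling, the other NF-κB pathway of flies, had a median of 0.03 over 16 genes. The Toll ligand gene spz had 10.00, 9.92 and 9.62 with LPS, against 10.12, 10.26 and 10.23 without (-0.36, SE 0.12), with no overlap. The Pelle-binding protein gene Pli (0.39, SE 0.30) and the glucan-binding recognition gene GNBP3 (0.38, SE 0.25) had overlapping groups. Toll effectors had a median of 0.00 over 7 genes, with IM33 at 0.18 (SE 0.10), the bomanin gene BomT2 at 0.17 (SE 0.08, no overlap) and the drosomycin-like gene Drsl3 at 0.16 (SE 0.12). IM18 is also listed as a Toll effector. It was left out of this median because CG10332 shares its probe set, which passed (2.76, SE 0.18).

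In the JAK-STAT list (13 genes, median 0.02) the virus-induced gene vir-1 differed by 0.58 (SE 0.35), the receptor-like inhibitor et by -0.36 (SE 0.17) and the cytokine gene upd2 by 0.20 (SE 0.20), all with overlap. Among p38 and other stress kinases (9 genes, median -0.00), p38a differed by 0.28 (SE 0.28), Ask1 by 0.16 (SE 0.12) and the stress transcription factor gene Atf3 by 0.16 (SE 0.21). The groups of p38a, Ask1 and Atf3 overlapped. Apoptosis genes (9, median 0.05) included the initiator caspase gene Dronc at 0.35 (SE 0.26), the caspase gene Damm at 0.26 (SE 0.18) and the Bcl-2 family gene Buffy at -0.20 (SE 0.14).

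Phagocytosis genes (19 measured) had a median of -0.03. The receptor gene eater had 9.80, 10.13 and 8.82 with LPS, against 10.85, 10.13 and 9.44 without (-0.56, SE 0.45), so replicate 3 was the lowest of both groups. The Nimrod gene NimB4 differed by -0.52 (SE 0.53) and the engulfment receptor gene drpr by -0.46 (SE 0.33), with overlap. The actin and adhesion list (17, median 0.07) held the actin-bundling protein gene sn at -0.38 (SE 0.15), from signals near the bottom of the scale, the integrin gene mys at 0.31 (SE 0.32) and the actin-nucleating subunit gene Arpc3B at 0.25 (SE 0.13). In the matrix list (14 genes) the metalloproteinase gene Mmp2 differed by 0.51 (SE 0.35), the adhesion ligand gene Tig by 0.24 (SE 0.17) and the nidogen gene Ndg by -0.20 (SE 0.10), the last without overlap. Melanization genes (11, median 0.18) included yellow-f at 0.48 (SE 0.25), the prophenoloxidase gene PPO2 at 0.39 (SE 0.47) and the protease gene Sp7 at 0.35 (SE 0.33), which overlapped.

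Of the mRNA decay genes (17 measured, median 0.02), smg, which recruits the deadenylase to maternal mRNAs, had 7.19, 7.38 and 7.07 with LPS, against 6.84, 6.90 and 6.83 without (0.36, SE 0.11). It differed by -0.06 (SE 0.16) in Tis11 dsRNA cells, and the limma test of the difference between both responses did not pass (unadjusted p = 0.059). LSm1, a subunit of the ring that binds decaying mRNA ends, differed by -0.20 (SE 0.10) without overlap, and the repressor gene pum by 0.18 (SE 0.11). In the RNA interference list (6, median -0.04) the antiviral gene Vago differed by -0.31 (SE 0.48), the microRNA processing gene pasha by -0.16 (SE 0.40) and the Dicer partner gene r2d2 by 0.14 (SE 0.20).

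The remaining stress and metabolism lists had small medians, and their leading members overlapped between groups. Heat shock genes (8, median 0.07) included Hsp68 at -0.27 (SE 1.11), Hsp26 at 0.22 (SE 1.37) and DnaJ-1 at 0.20 (SE 0.34). For endoplasmic reticulum stress (12, median 0.05), Herp differed by 0.24 (SE 0.30), the folding enzyme gene Pdi by 0.19 (SE 0.13) and the translocon gene Sec61alpha by -0.12 (SE 0.13). The iron list (10, median 0.11) had the transferrin genes Tsf3 at 0.33 (SE 0.41) and Tsf2 at 0.27 (SE 0.37), and the iron regulatory protein gene Irp-1B at -0.22 (SE 0.32).

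For glycolysis (11, median -0.07) the sugar transporter gene Glut1 differed by -0.21 (SE 0.11), the hexokinase gene Hex-A by 0.20 (SE 0.25) and Gapdh1 by -0.14 (SE 0.14). Replication genes (14, median 0.01) had the licensing factor gene dup at 0.15 (SE 0.46), Orc1 at 0.15 (SE 0.13) and the cyclin gene CycE at 0.12 (SE 0.35), and mitosis genes (9, median 0.02) had CycB at 0.24 (SE 0.30), the kinase genes aurB at -0.21 (SE 0.47) and Bub1 at 0.16 (SE 0.13). No proliferation gene named here had separate groups.

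None of the blood cell markers passed, and none had an unadjusted limma p under 0.05. The 11 plasmatocyte markers had a median of -0.07, with the scavenger receptor genes Sr-CI at -0.20 (SE 0.20) and crq at 0.19 (SE 0.39). The 6 lamellocyte markers had a median of 0.07, with the integrin gene ItgaPS4 at 0.43 (SE 1.01) and the filamin gene cher at -0.08 (SE 0.43). The 5 crystal cell markers had a median of 0.32. Their enzyme gene PPO1 had 7.38, 9.40 and 6.66 with LPS, against 7.54, 7.85 and 7.09 without, so GFP dsRNA + LPS replicate 2 was high and the rest overlapped. The crystal cell regulator gene lz was under 5 in all 6 arrays (0.48, SE 0.29).

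Fat body is a tissue that also makes antimicrobial peptides. Its 7 markers had a mean level between 4.74 and 5.05 in the GFP dsRNA + LPS arrays and between 4.85 and 5.13 in the GFP dsRNA arrays (median difference -0.06), with Lsp2 at -0.14 (SE 0.11), Fbp1 at -0.11 (SE 0.11) and Yp2 at -0.10 (SE 0.11). Neuron markers (6) had a median of 0.03, with the sodium channel gene para at -0.23 (SE 0.09), elav at 0.22 (SE 0.11) and nSyb at -0.18 (SE 0.09), from levels of at most 6.

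**Figure D4:**
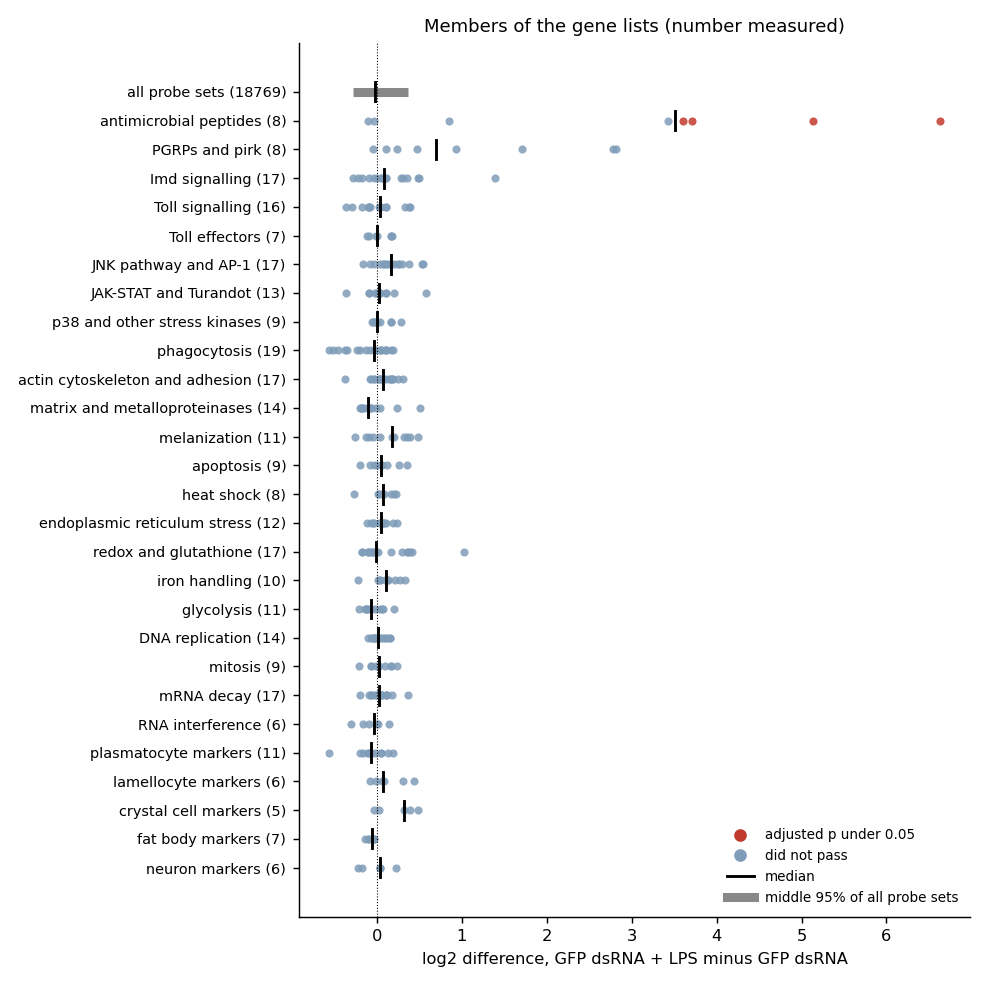
Log2 difference (GFP dsRNA + LPS minus GFP dsRNA, horizontal axis) of each measured member of the 27 gene lists, with all probe sets in the top row, medians as black ticks and members that passed in red. The median is 3.51 for antimicrobial peptides and 0.70 for PGRPs and pirk, and the other lists lie between -0.11 and 0.32.

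With the 10 calls included, 43 probe sets had a log2 difference over 1 (0.229%) and 5 were under -1 (0.0266%). Of the 33 over 1 that did not pass, 25 had groups without overlap, where 2.15% of all probe sets were higher without overlap. These 33 were selected by the size of their difference, which favours separate groups, so the count is no separate support. The genes named in this paragraph and the next were chosen after their values were seen. Sulf1, an enzyme that removes sulphate from heparan sulphate chains, had 7.98, 7.65 and 9.36 with LPS, against 6.20, 5.99 and 6.21 without (2.19, SE 0.42, adjusted p = 1.0). The dipeptidyl peptidase gene ome had 7.39, 6.48 and 6.96 with LPS, against 5.13, 4.85 and 4.64 without (2.07, SE 0.25, adjusted p = 0.15). Both had separate groups.

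CG14567 varied widely between repeats, with 8.32, 6.65 and 10.78 with LPS, against 5.85, 5.59 and 6.01 without (2.77, SE 0.95, adjusted p = 1.0). The metal transporter gene Zip99C had 12.11, 12.12 and 11.89 with LPS, against 11.72, 10.50 and 10.16 without (1.25, SE 0.39). The spondin gene mspo differed by 1.76 (SE 0.33) and the adhesion protein gene Nrt by 1.47 (SE 0.30), again with separate groups. The oligopeptide transporter gene yin had 8.30, 10.24 and 8.26 with LPS, against 8.50, 7.24 and 6.82 without, and its groups overlapped (1.41, SE 0.65).

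The falls were smaller. Among probe sets whose groups did not overlap, Tina-1 had the largest, at 11.12, 9.80 and 10.71 with LPS, against 11.29, 11.42 and 11.19 without (-0.76, SE 0.32). Its size rested mainly on GFP dsRNA + LPS replicate 2, without which it was -0.39. Reg-2, named as a rhythmically expressed gene, had 7.79, 7.56 and 7.20 with LPS, against 7.86, 8.51 and 7.94 without (-0.59, SE 0.22, and -0.38 without GFP dsRNA replicate 2).

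Pyruvate carboxylase (PCB) differed by -0.48 (SE 0.20), Pfrx, which sets the level of an activator of phosphofructokinase, by -0.52 (SE 0.15), the acetyl-CoA acetyltransferase gene Acat1 by -0.49 (SE 0.16) and the glycosyltransferase gene Ugt35A1 by -0.48 (SE 0.16). The gene drd differed by -0.54 (SE 0.22), CG3770 by -0.46 (SE 0.13), and 1631205_a_at and 1629705_at, with no gene in the annotation used here, by -0.64 (SE 0.16) and -0.56 (SE 0.21). Without GFP dsRNA + LPS replicate 2, drd was -0.28, PCB -0.27 and 1629705_at -0.33. None of these passed, each with an adjusted p of 1.0. The 5 probe sets under -1, which include Cyt-b5-r and CG9338, all had overlapping groups.

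Counting without a test gave 404 probe sets that were higher in all GFP dsRNA + LPS arrays than in all GFP dsRNA arrays (2.15%) and 815 that were lower in all (4.34%). The lower ones were small and dim, with a median difference of -0.18, and 646 of the 815 had a mean under 6. Over all probe sets, 216 differed by more than 0.5 (1.15%) and 70 were under -0.5 (0.373%), of which 80 and 6 had no overlap.

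The same LPS treatment in Tis11 dsRNA cells was measured on other arrays. There 15 probe sets rose at an adjusted p under 0.05 by limma (0.0799%) and 0 fell (0 either way by the methods' t-test), and at an unadjusted limma p of 0.05 the counts were 239 higher (1.27%) and 269 lower (1.43%). Of the 10 that passed in GFP dsRNA cells, 9 passed in Tis11 dsRNA cells as well, which is 90.0% of the 10 and 60.0% of the 15. The exception was Sema5c, at 0.91 (SE 0.32, adjusted p = 1.0) with overlapping groups. AttD differed by 6.89 (SE 0.39) in Tis11 dsRNA cells, Mtk by 5.20 (SE 0.22), DptB by 4.20 (SE 0.21) and edin by 3.92 (SE 0.30). Hsp26 also varied widely between these repeats. It had 8.21, 10.61 and 8.63 in the Tis11 dsRNA + LPS arrays, against 11.49, 7.32 and 8.13 in the Tis11 dsRNA arrays. These values resemble those of the GFP dsRNA cells in another order of replicates. CG14567 likewise had 9.13, 10.79 and 6.9 in the Tis11 dsRNA + LPS arrays, against 8.32, 6.65 and 10.78 in the GFP dsRNA + LPS arrays. Whether the GFP and Tis11 dsRNA arrays came from shared cultures was not tested. The second measurement is therefore not taken as independent of the first.

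The 6 probe sets that passed with Tis11 dsRNA alone, CecB and pirk among them, differed by 1.02 to 3.43 in GFP dsRNA cells without overlap. In the test of the difference between both responses 0 of 18769 probe sets passed, with 373 at an unadjusted limma p under 0.05 (1.99%). Among the 10, the unadjusted p of this difference lay between 0.17 and 0.96. All 43 probe sets over 1 in GFP dsRNA cells were also higher with LPS in Tis11 dsRNA cells, where 53.7% of all probe sets were above 0. Of the 43, 42 were higher by more than 0.5, and the share of all probe sets that were so was not counted.

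Probe sets chosen for separate groups alone include many small differences. Of the 404 probe sets that were higher without overlap in GFP dsRNA cells, 88 (21.8%) were so in Tis11 dsRNA cells, where 5.04% of all probe sets were. Of the 815 that were lower without overlap, 103 (12.6%) were so in Tis11 dsRNA cells, where 3.33% of all were. In sign alone, 299 of the 404 were higher in Tis11 dsRNA cells, where 53.7% of all probe sets were above 0. Of the 815, only 356 were lower there, so most of them did not keep their direction. The 5 probe sets under -1 were also lower in Tis11 dsRNA cells, each by more than 0.5.

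**Figure D5:**
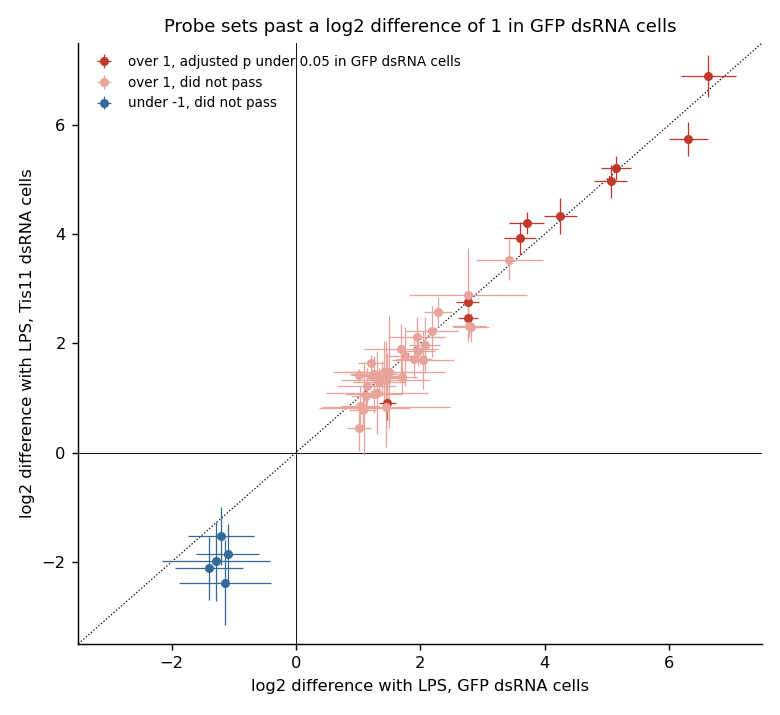
Log2 difference with LPS in GFP dsRNA cells (horizontal axis) and in Tis11 dsRNA cells (vertical axis) for the 43 probe sets over 1 and the 5 under -1 in GFP dsRNA cells, with standard errors from limma as bars and equality as the dotted line. The position on the horizontal axis was set by this selection. On the vertical axis all 43 lie above 0 and all 5 below 0.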

How the data were processed

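The deposited table holds log2 values that the authors computed with RMA in RMAExpress (background correction, quantile normalization and median polish) for 18952 probe sets, and the software version is not given in the sources used here. The sources used here do not say if the 12 arrays were normalized in 1 run. RMA makes arrays alike in distribution, and differences between dim signals are compressed. No further normalization or filter was applied, 183 control probe sets were left out, and the number of arrays limits the precision. The platform annotation names 1 gene for 13647 probe sets, several for 402 and none for 4720. Where a gene has several probe sets, that of the highest mean signal stands for it.

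Groups were taken from the sample titles and tested by linear models (limma 3.58.1 under R 4.3.3, with empirical Bayes variances) on the 6 arrays, and on all 12 for the difference between both responses, with Benjamini-Hochberg adjustment over all 18769 probe sets and a threshold of 0.05. The fits were also run on simulated arrays with independent noise. Those lack the variation that probe sets share in the real arrays, so they cannot show how the fits behave under it. The smallest p of an exact permutation test of 3 arrays against 3 is 0.1, so none was used. Named are all probe sets that passed, the 10 largest rises and falls without overlap, all measured antimicrobial peptide, PGRP and Imd genes, and of each other list the members with an unadjusted p under 0.05 or, where fewer than 3, the 3 with the largest differences. Comparison, members and lists (388 genes, 292 measured) were chosen with earlier results of these data known. Alternatives were a replicate block, a filter on means of at least 6, median centring, an intensity trend, all 12 arrays in 1 fit, the methods' t-test, a threshold of 1, genes instead of probe sets and leaving out each array. Plots used matplotlib 3.10.9 under Python 3.11.15.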

Additional observations from a re-analysis of the deposited data

How the results depend on the processing

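The number of arrays and the dim signal of many probe sets limit these results. In GFP dsRNA cells 10 probe sets rose, and 13 with the replicate block, 13 with an intensity trend, 14 with all 12 arrays in 1 fit, 10 with means of at least 6 and 10 after centring. With genes in place of probe sets 6 rose, since probe sets with no or several genes were left out, and the methods' t-test gave 0 after adjustment (174 higher and 358 lower before it, with 167 and 146 by limma). The t-test called 1 probe set lower, emei (-0.132, adjusted p = 0.034, named after its value was seen). Leaving out each array gave 0 to 14. In Tis11 dsRNA cells 15 rose, with 4 under the block, 0 by the adjusted t-test, and 6 to 26 when each array was left out. The difference between both responses gave 0 in every fit run. The cause of these changes was not tested.

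The replicate numbers were not taken as pairs. The deviations of same-numbered arrays from their group means correlated at 0.10, -0.06 and 0.87, and only replicate 3 matched its own number best. GFP dsRNA + LPS replicate 1 correlated best with GFP dsRNA replicate 2 (0.74), and its replicate 2 with GFP dsRNA replicate 1 (0.67), a structure that the block by number does not model. The replicate block added PGRP-LB, pirk and the probe set of CG42740 and CG2217 to the 10 and changed no other call there. Over the limma settings, named probe sets lost a call 30 times and gained one 12 times, with no change of direction, and by the adjusted t-test all 10 lost theirs. The 49 changes of sign concerned differences with an adjusted p of 1.0. After centring, Listericin was 0.01, IKKbeta 0.01 and casp 0.04. The others came from leaving out 1 array, with these ranges. They were Listericin -0.20 to 0.08, PGRP-LE -0.04 to 0.19, Dredd -0.08 to 0.15, IKKbeta -0.12 to 0.02, Diap2 -0.11 to 0.22, casp -0.02 to 0.03 and dnr1 -0.55 to 0.04. Further ranges were scny -0.07 to 0.28, Atf3 -0.07 to 0.32, PPO2 -0.07 to 0.65, Hsp68 -1.0 to 0.93, Hsp26 -0.73 to 1.67, DnaJ-1 -0.15 to 0.52 and Herp -0.01 to 0.45. They were Tsf3 -0.05 to 0.80, Tsf2 -0.03 to 0.60, Irp-1B -0.50 to 0.05, Hex-A -0.06 to 0.37, dup -0.26 to 0.59, CycE -0.27 to 0.41 and CycB -0.09 to 0.51. Further ranges were aurB -0.59 to 0.27, Vago -0.75 to 0.08, pasha -0.46 to 0.22, crq -0.10 to 0.56, ItgaPS4 -0.71 to 1.07, cher -0.46 to 0.27 and PPO1 -0.47 to 0.90. The counts over 0.5 and under -0.5 were 216 and 70, and without 1 array 213 to 496 and 70 to 281.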
